A study of Mus musculus with 2 samples.

Results

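DNA methylation was examined at the imprint control regions that are methylated on the chromosome inherited from the father. Members were cytosines with a coverage of at least 10 reads in both libraries inside 3 windows of the mouse build mm9. The windows were the H19 control region (chr7:149764000-149770000), the Dlk1-Meg3 intergenic region with the Meg3 promoter (chr12:110764000-110780000) and the region upstream of Rasgrf1 (chr9:89767000-89777000). They held 221 of the 2312276 cytosines analysed in the series, 50 in the H19 window, 171 in the Meg3 window and 0 in the Rasgrf1 window. Both libraries came from the hippocampus of C57BL/6 mice, 1 labelled as a control without treatment and 1 labelled with arsenic trioxide (ATO), given at 5000 ppb in the drinking water. Mice drank it from before mating until lactation ended, and their weaned offspring until the experiment's end. The labels give neither the age of the mice nor whether a library came from 1 animal or a pool. There was 1 library per group, so each difference below compares these libraries, has no replicate check and is no test of the exposure. Levels are percentages of reads that kept a C after bisulfite treatment. Differences are given in percentage points, with the control subtracted from the ATO library.

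An imprinted gene is read mainly from the copy inherited from 1 parent. Its control region carries methylation on 1 parental chromosome and little on the other, so a tissue in which every cell holds both copies reads near 50%. At H19, a long noncoding RNA gene, methylation of the paternal control region keeps the insulator protein CTCF from binding and lets enhancers reach Igf2, a growth factor gene. Between Dlk1, a paternally expressed gene for a transmembrane protein, and Meg3, a maternally expressed long noncoding RNA gene, the intergenic control region is methylated in sperm. The Meg3 promoter gains its paternal methylation after fertilisation. Rasgrf1 encodes an exchange factor that activates Ras, is expressed in neurons, and has a paternally methylated region with a block of repeats upstream. The deposited values carry no parental origin, so which chromosome was methylated could not be read from them. They hold no expression either, so the labelled tissue was not checked against marker genes. No gene model of mm9 was used here, so exons and introns are not given. Distances from a gene start are given for Meg3 and Rasgrf1 alone. No promoter sequence of H19 was available, so its start was not placed.

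The promoter of Meg3 is shown because it lies inside the longest stretch of intermediate methylation in the Meg3 window. The sequence is that of RefSeq (build GRCm38.p6, plus strand), 250 bases before to 50 bases after the gene's start, with each CpG in capitals.
Meg3 promoter: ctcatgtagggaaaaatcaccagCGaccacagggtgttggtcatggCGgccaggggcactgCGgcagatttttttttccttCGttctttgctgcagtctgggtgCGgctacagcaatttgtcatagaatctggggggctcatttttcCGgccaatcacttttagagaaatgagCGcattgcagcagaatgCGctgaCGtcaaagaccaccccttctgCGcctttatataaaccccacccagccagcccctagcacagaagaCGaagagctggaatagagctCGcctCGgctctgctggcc
The spacing of its 13 CpGs matched the listed positions of chromosome 12 at a single offset, where all 13 coincided, against 8 at the next best offset. This placed the printed bases at chr12:110778956-110779255 of mm9 and the first transcribed base at 110779206. The median over 32851 RefSeq promoters of this length was 7 CpGs, and 37.9% held 13 or more. A second Meg3 promoter in RefSeq, with 1 CpG, could not be placed, so distances refer to the start given above. Short motifs were searched on both strands of the printed sequence.

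The palindrome TGACGTCA, the full cAMP response element, occurs once, at bases 194 to 201. It is present in 1.79% of the promoters. TGCCGC, the core that the imprint-maintaining zinc finger protein ZFP57 binds when methylated, occurs once on the minus strand, at bases 61 to 66, and is present in 11.6% of the promoters. The TATA box core TATAAA occurs at bases 226 to 231, overlapping a minus-strand match at 222 to 227, and is present in 13.6%. A match describes letters and does not show binding.

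Depth was uneven along the windows. Analysed cytosines had a median coverage of 42.5 reads in the control library and 56.5 in the ATO library in the H19 window, and 44 and 46 reads in the Meg3 window. The lowest coverage was 10 and the highest 191 reads. Of the 221 cytosines, 215 lay on the reverse strand. No cytosine was analysed in the uppermost 3001 bp of the H19 window, above 149766999, or over 6247 bp of the Meg3 window between 110770814 and 110777061. In the Rasgrf1 window the highest coverage of any listed cytosine was 4 reads in the control library and 8 in the ATO library.

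**Figure D1:**
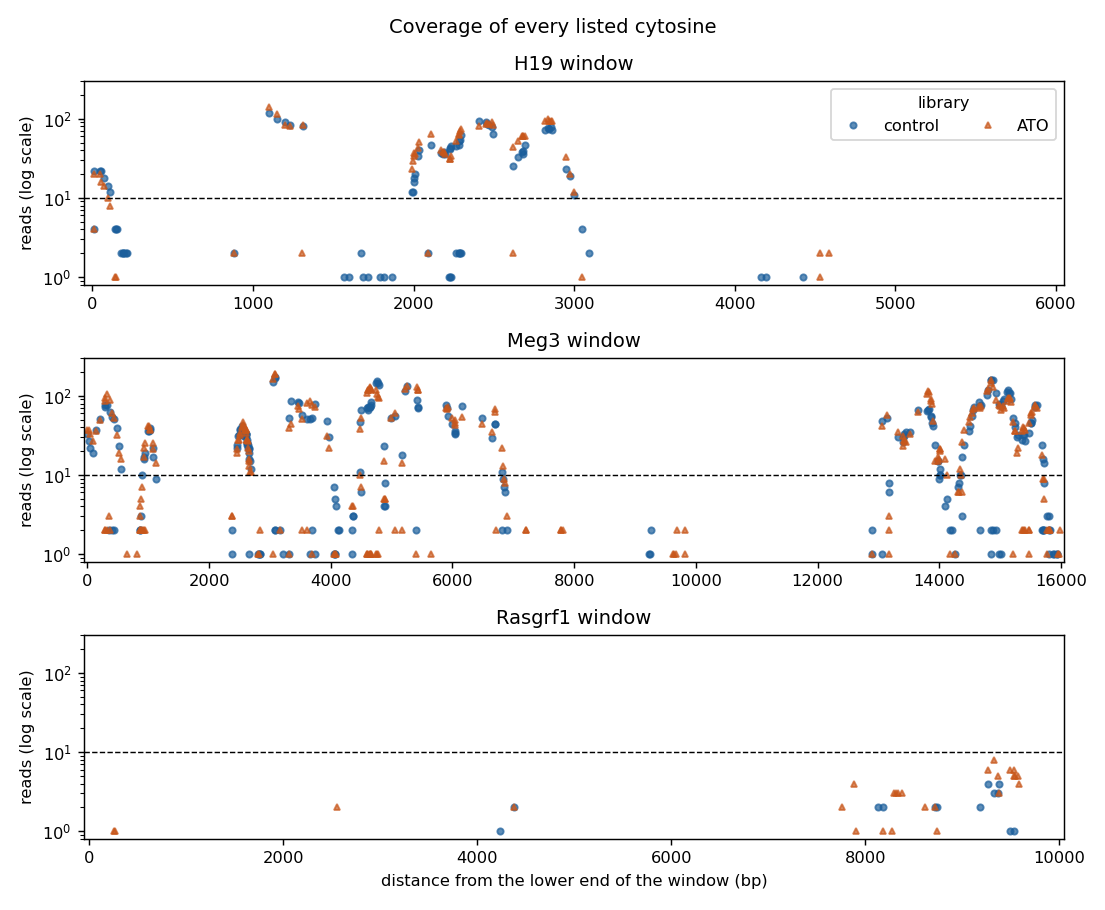
Reads (log scale) at every listed cytosine of the 3 windows against the distance in bp from the window's lower end, with circles for the control library, triangles for the ATO library and a dashed line at the minimum of 10 reads. The H19 and Meg3 windows were read in patches, and every Rasgrf1 point lies at or below 8 reads.

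Counts of the libraries were compared with Fisher's exact test, and p-values were adjusted by Benjamini-Hochberg over all analysed cytosines or bins of the series. Calling a cytosine took an adjusted p under 0.05 together with a difference of 25 points or more, which 2.65% of all analysed cytosines reached. Bins of 500 bp with 5 or more analysed cytosines were called at an adjusted p under 0.05 and at least 20 points, which 1.80% of all bins reached. Of the 50 H19 cytosines 0 were called, and 6 had an unadjusted p under 0.05 (Fisher's exact test).

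In the H19 window, methylation lay near 50% in both libraries. The 50 analysed cytosines averaged 49.4% in the control library (SD over cytosines 12.6) and 52.1% in the ATO library (SD 9.71). Levels lay between 30 and 70% at 44 cytosines in 1 library, the control, and at 47 in the other. Stretches of intermediate methylation were taken as runs of at least 5 cytosines whose mean over both libraries lay in this range, with up to 2 consecutive cytosines outside it and no gap over 1000 bp. All 50 cytosines fell into 2 such stretches.

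The longer H19 stretch ran from 149765098 to 149766999, 1902 bp with 45 cytosines, all on the reverse strand. It averaged 51.8% in the control library (SD 10.8, range 36.0 to 81.8) and 51.3% in the ATO library (SD 9.27, range 35.0 to 71.3). Of all calls there, 52.4% were methylated in the control library and 54.4% in the ATO library. Neighbouring cytosines share fragments, so sums were divided by 18, the most analysed cytosines that a stretch of 300 bp held. The exact 95% intervals on the divided sums were 43.8 to 61.5 and 46.0 to 62.2. These intervals cover counting error only, and they overlapped almost wholly.

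Levels within the longer H19 stretch were not uniform. The first cytosines, from 149765098 to 149765231, averaged 65.6% and 59.6%. Among them, 149765148 had the highest mean level, at 69.4% of 98 reads and 71.3% of 115 reads, and 149765231 read 48.8% of 84 reads in the control library and 35.4% of 82 in the ATO library. After 1 more cytosine, at 149765309, no cytosine was analysed for 680 bp. From 149765989 upwards cluster means ran from 42.1 to 61.1% in the control and from 39.7 to 64.0% with ATO, with the lowest mean of both libraries at 149766622 (36.0% and 38.6%). Neither edge was seen directly. The last analysed cytosine, 149766999, was still in the range by its mean over both libraries, at 81.8% of 11 reads and 41.7% of 12 reads, and coverage ended there. Below 149765098 the nearest analysed cytosine lay 1002 bp away, 2 bp past the largest gap allowed. That cytosine was in the range only by its mean over both libraries. Its level lay below the range in the control library and above it in the ATO library.

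**Figure D2:**
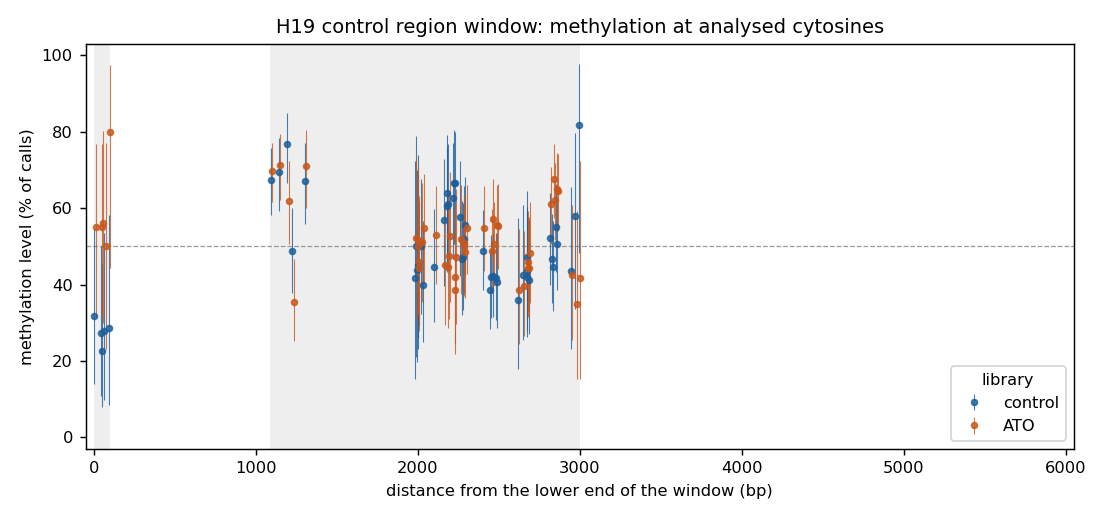
Methylation level with exact 95% binomial intervals at the analysed cytosines of the H19 window, control in blue and ATO in orange, against the distance in bp from the window's lower end. Grey marks the 2 intermediate stretches, and in the longer one 32 (control) and 31 (ATO) of the 45 cytosines lie between 40 and 60%, around the dashed line at 50%.

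The shorter H19 stretch, 149764008 to 149764096, held 5 forward-strand cytosines at the lower end of the window. All 5 were lower in the control, with 22.7 to 31.8%, than with ATO, where they ranged from 50 to 80%. The groups of levels did not overlap, but the cytosines lie within 89 bp and share fragments. Mean levels were 27.6% and 59.2%, a difference of 31.6 points (SD 11.9 over cytosines). Levels of 30 to 70% were read at 1 of the 5 in the control and at 4 with ATO. The control mean lay below that range, which was applied to the mean of both libraries. Coverage was 14 to 22 reads in the control library and 10 to 20 in the ATO library. The exact 95% intervals on divided sums, 9.15 to 51.2 and 29.9 to 80.2, overlapped. The 500-bp bin that held them was not called (Fisher's exact test on divided sums, adjusted p = 0.879). With every call counted as independent it was called, as were 4.94% of all bins, with adjusted p = 0.000449 by Fisher's exact test. When the window was widened, the stretch began at 149763683 and held 20 cytosines, and the mean difference was 12 points.

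Across the rest of the H19 window some clusters of cytosines were higher and others lower in the ATO library. Over the longer stretch it averaged -0.482 points (SD 13.0), with 26 cytosines higher and 19 lower in the ATO library. Its sign turned positive when calls were weighted alike and at coverage minimums of 20 and 30, so no direction is given. Clusters held cytosines at most 60 bp apart, a division chosen after the values were seen. From 149765309 to 149766107 the differences were positive, at 4.01, 4.28 and 8.44 points in clusters of 1, 7 and 1 cytosines. From 149766168 to 149766298 the control averaged 58.1% and the ATO library 47.8%, with 10 of 12 cytosines lower in the ATO library. In the next cluster, 149766406 to 149766494, the control averaged 42.3% and the ATO library 53.8%, and all 6 were higher. The next cluster, 149766622 to 149766691, differed by 1.40 points. From 149766819 to 149766864 the levels were 49.8% and 64.0%, again higher at all 5. At the upper end, 149766949 to 149766999, all 3 were lower, with 61.1% and 39.7%, at median coverages of 19 and 20 reads. The smallest adjusted p in the H19 window was at 149766836. It read 46.8% of 77 reads in the control library and 67.7% of 99 in the ATO library, and did not pass after adjustment over all analysed cytosines (Fisher's exact test, adjusted p = 0.106).

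The Meg3 window held 3 stretches of intermediate methylation, separated from each other by mostly more highly methylated DNA. Above the uppermost stretch no cytosine of the window was analysed. All 171 cytosines averaged 65.0% in the control library (SD 22.4) and 59.9% in the ATO library (SD 22.2). Outside the stretches, 85 cytosines averaged 81.7% and 76.9%. Above the lowest stretch, 9 cytosines from 110764924 to 110765087 were almost fully methylated, at 98.2% and 96.0%. From 110767056 to 110770702, clusters of at least 2 cytosines averaged 59.8 to 93.3% in the control and 60.9 to 94.2% with ATO. The cytosine at 110769173 in this part was read as unmethylated in 18 of 18 calls of the control and 14 of 14 of the ATO library, between neighbours at 81.8% and 92.2% in the control. Its cluster gave the lowest of these means in both libraries, although 83.4% and 86.3% of the cluster's calls were methylated.

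The intergenic part held a short intermediate stretch dense in CpGs. It ran from 110766464 to 110766682, 219 bp with 29 cytosines, all within reach of the same fragments. The control averaged 56.6% (SD 11.6, range 35.7 to 87.5) and the ATO library 38.8% (SD 5.76, range 29.4 to 52.4). All 29 cytosines were lower in the ATO library, by 17.8 points on average (SD 8.8). Median coverages were 30 and 28 reads, and 1 fragment can span all 29 cytosines. On sums divided by 29 the exact 95% intervals, 33.9 to 72.5 and 20.7 to 57.7, overlapped. The bin 110766501 to 110767000, with 25 of the cytosines, read 52.7% and 37.5% and was not called (Fisher's exact test, adjusted p = 1.0). The largest difference, at 110766468, went from 87.5% of 24 reads to 52.4% of 21 reads (Fisher's exact test, adjusted p = 0.227). At the 13 cytosines with at least 30 reads in both libraries the mean difference was -12.1 points.

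The edges of this intergenic stretch lay in DNA with no analysed cytosine. The nearest analysed cytosine below, 110765087, was 1377 bp away and fully methylated in both libraries. The nearest above, 110767056, was 374 bp away, at 84.0% of 150 reads and 78.7% of 164 reads. A smaller stretch of 5 cytosines, 110764325 to 110764491, had levels of 92.2% and 86.0% at 34 bp below it and 87.0% and 78.9% at 35 bp above it. At the upper edge the exact 95% intervals on either side overlapped in both libraries. Farther down, 4 cytosines from 110764002 to 110764101 were in the range as well, at 45.5 to 63.6% in the control and 40.7 to 59.5% with ATO. The stretch of 5 averaged 72.0% in the control library and 58.3% in the ATO library, lower at all 5. Its mean level in the control was above the range that defines the stretches, which was applied to the mean of both libraries.

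**Figure D3:**
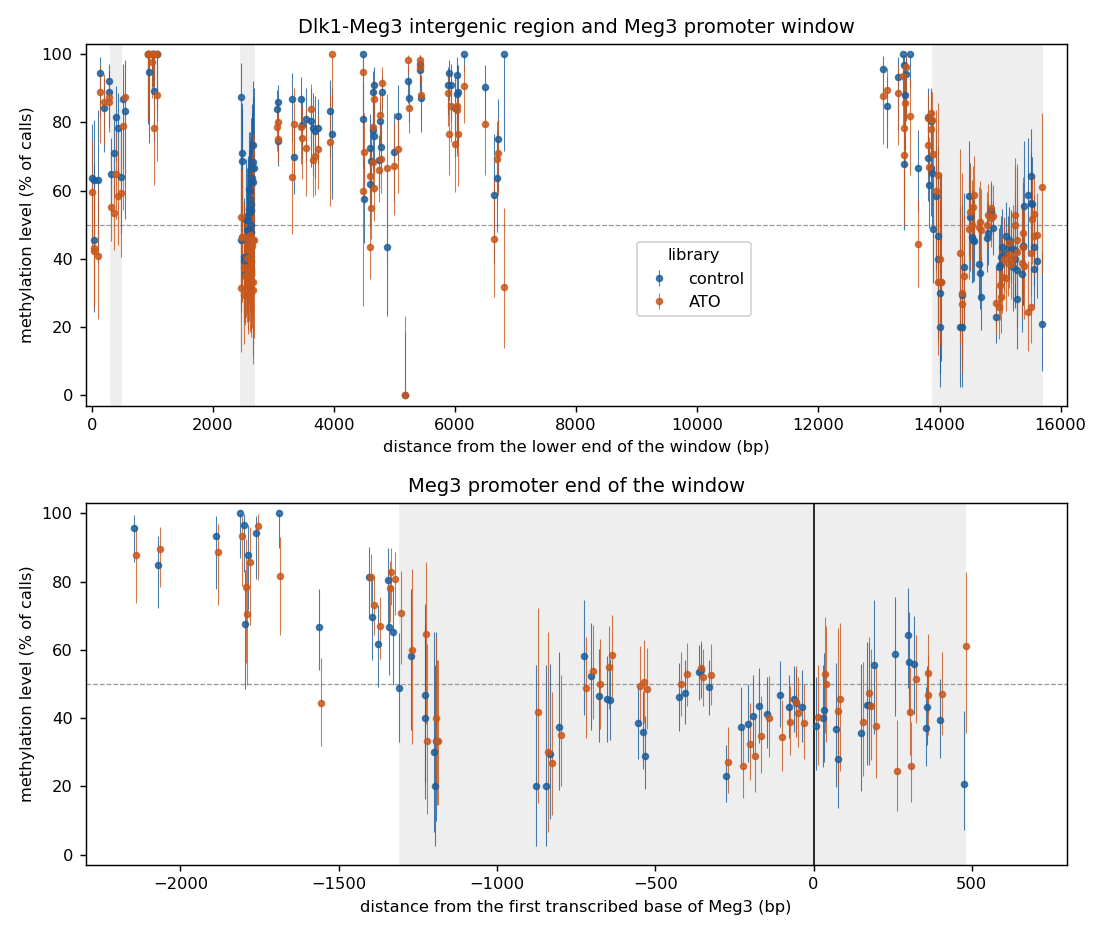
Methylation level with exact 95% binomial intervals at the analysed cytosines of the Meg3 window, control in blue and ATO in orange, against the distance in bp from the window's lower end (top) and from the first transcribed base of Meg3, the vertical line (bottom). Grey marks the 3 intermediate stretches, and levels fall from above 80% to below 50% on the way to the Meg3 start.

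The Meg3 promoter was the longest intermediate part of this window. The stretch ran from 110777900, 1306 bp upstream of the first transcribed base, to 110779686, 480 bp downstream of it, with 52 cytosines. It averaged 41.8% in the control library (SD 10.7, range 20 to 64.4) and 43.9% in the ATO library (SD 10.8, range 24.4 to 70.8). The exact 95% intervals on sums divided by 14 were 37.1 to 50.3 and 38.2 to 51.6. The interval of the control reached just past 50%, and that of the ATO library did as well.

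The lower edge of the Meg3 promoter stretch was read in both libraries. Levels were 80.4% and 78.0% at 110777864, and 65.2% and 80.8% at 110777882. They were 48.8% and 70.8% at 110777900, the first cytosine of the stretch, and 6 of 15 and 5 of 15 reads were methylated at 110777982. At 110778011 it was 3 of 10 reads and 8 of 20 reads. In both libraries levels were thus lower at 1195 bp than at 1342 bp before the start site, with single cytosines between them out of order. At single cytosines of this slope the ATO library was often the higher one, with 9 of 13 higher between 110777804 and 110778017. The last cytosine of the stretch, 110779686, read 20.8% of 24 reads in the control library and 61.1% of 18 in the ATO library (Fisher's exact test, adjusted p = 0.164). It was the last analysed cytosine of the window, so the upper edge was not seen there. The next analysed cytosine, outside the window and 392 bp farther, read 45.5% of 11 reads in the control library and 7.69% of 13 in the ATO library. Without the window's limit the stretch ran on to 110781987, with 81 cytosines, and its mean difference changed from 2.13 to -1.02 points.

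The 13 CpGs of the printed Meg3 promoter were all analysed, each on the reverse strand. They averaged 41.9% in the control library (SD 2.98, range 37.5 to 46.8) and 38.7% in the ATO library (SD 7.68, range 26.0 to 52.8). The 10 CpGs before the start site were all lower in the ATO library, with differences from -12.4 to -0.774 points, and the 3 after it were all higher, by 2.69 to 12.8 points. Neighbouring CpGs share fragments, and beyond the printed bases the signs were mixed. All 3 cytosines from 110778654 to 110778678 were higher in the ATO library. From 110779467 to 110779610, after the start site, 3 were higher and 4 lower. None of the 13 was called, and none had an unadjusted p under 0.05 (Fisher's exact test, smallest adjusted p = 0.516). The CpG inside the cAMP response element read 44.4% of 108 reads in the control library and 41.5% of 94 in the ATO library. The CpG inside the ZFP57 hexamer read 40.5% of 74 reads and 28.8% of 66 reads (Fisher's exact test, adjusted p = 0.685).

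Over the whole Meg3 promoter stretch the libraries did not differ in a stable direction. The mean difference was 2.13 points (SD 13.0), with 30 cytosines higher, 21 lower and 1 equal. It was -0.011 points with a coverage minimum of 20. Near the upper end the difference changed sign over short distances. Levels were 58.8% of 34 reads and 24.4% of 45 reads at 110779467, and 56.5% of 46 reads and 25.9% of 58 reads at 110779510. The cytosine at 110779564, 54 bp farther, read 37.0% of 73 reads and 46.7% of 75 reads. The first pair did not pass (Fisher's exact test, adjusted p = 0.0612 and 0.0563). With minimums of 20 or 30 reads, which left fewer cytosines to adjust over, both passed, with adjusted p from 0.0385 to 0.0496 by Fisher's exact test.

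Among the 221 cytosines, 1 was called between the libraries, against 2.65% of all analysed cytosines. The called cytosine, 110770814 in the Meg3 window, was methylated in 11 of 11 reads of the control and 7 of 22 of the ATO library, a difference of -68.2 points (Fisher's exact test, adjusted p = 0.00842). The 4 cytosines above it had fewer than 10 reads in the control and pointed the same way. However, 1 fragment can span all of them and the called one, so they are no independent check of it. The nearest of them, 110770829, read 88.9% of 9 reads and 15.4% of 13 reads. With a minimum of 20 reads none of these was tested. The windows held 19 such bins of 500 bp, of which 0 were called, against 1.80% of all bins (Fisher's exact test on divided sums, smallest adjusted p = 0.879). An unadjusted p under 0.05 was reached by 27 of the 221 cytosines, 12.2%, and by 12.8% of all analysed cytosines.

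The windows were also set beside all cytosines of intermediate level in the series. A mean level of 30 to 70% was found at 148 of the 221 cytosines and at 380550 cytosines of the series. Of the 148, 1 was called and 12.8% had an unadjusted p under 0.05. Of all 380550, 11.2% were called and 31.5% had an unadjusted p under 0.05. The SD of the differences was 16.5 points over the 148 cytosines and 20.9 points over the class. Read counting alone would give an SD of 11.8 and 11.3 points. In the 2 longest stretches, at H19 and the Meg3 promoter, the SD was 13.0 points in each, with counting SDs of 10.9 and 11.3. Median coverages were 38.5 and 43.5 reads over the 148 cytosines and 48 and 53 reads in the class, so the class was read somewhat deeper. The mean difference of the 148 was -3.45 points and that of the class -4.31 points. In the ATO library 85 of the 148 were lower and 62 higher, and 59.2% of the class were lower and 40.4% higher. Many of the 148 cytosines share fragments and are not independent, so these are descriptions, with no test of a difference from the class.

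**Figure D4:**
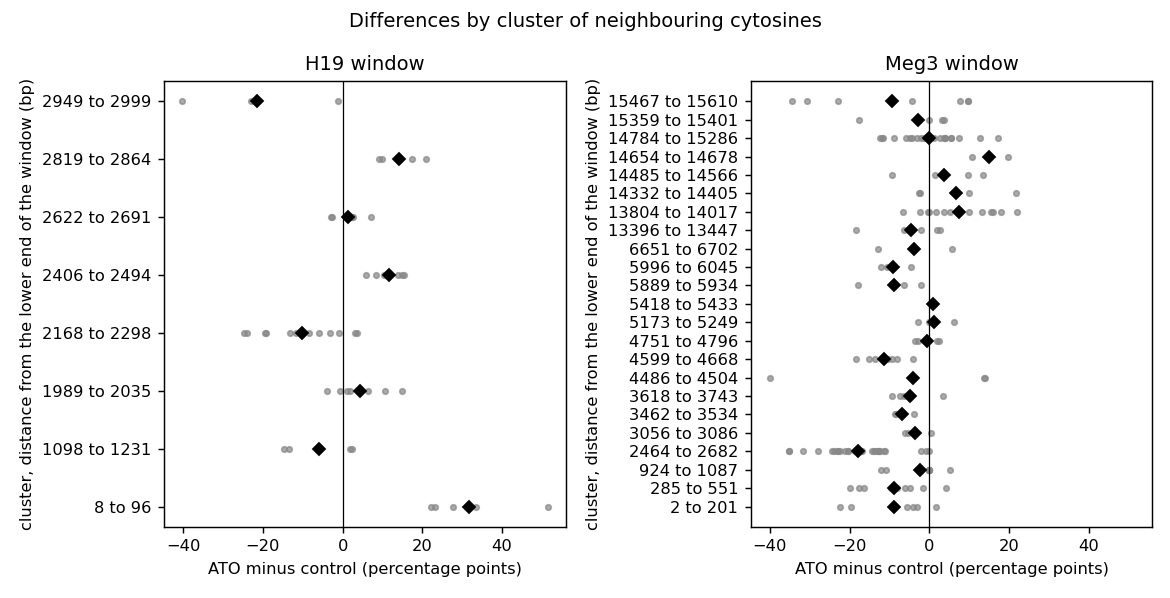
ATO minus control in percentage points at single cytosines (grey) and as the mean (black diamond) of each cluster of 3 or more cytosines at most 60 bp apart, in the H19 window (left) and the Meg3 window (right). The intergenic cluster of 29 cytosines averaged -17.8 points, and clusters of the H19 window lie on both sides of 0.

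Outside the stretches of the Meg3 window, 55 of 85 cytosines were lower in the ATO library, 24 higher and 6 equal, with a mean difference of -4.80 points (SD 12.2). They included 18 cytosines with a mean level of 30 to 70%, the called one among them, which differed by -9.14 points on average (SD 19.3). The 66 above 70% averaged 87.5% in the control and 83.8% with ATO, with 42 lower, 19 higher and 5 equal and a mean difference of -3.69 points (SD 9.34). All analysed cytosines of the series above 70% differed by -1.49 points (SD 11.6), with 51.1% lower and 39.9% higher. Each cluster from 110769889 to 110770491 was lower in the ATO library. Among these, 110769903 read 94.4% of 71 reads and 76.5% of 68 reads (Fisher's exact test, adjusted p = 0.0718). Over the whole Meg3 window the difference was -5.15 points (SD 13.5), with 110 cytosines lower and 54 higher. All analysed cytosines of the series differed by -1.28 points (SD 11.9), with 43.8% lower and 37.2% higher. With every call weighted alike the difference of the Meg3 window was -2.73 points. The intergenic stretch, with median coverages of 30 and 28 reads, then counted for less.

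The Rasgrf1 window could not be described at this depth. It listed 29 cytosines in either library, 13 in the control, 26 in the ATO library and 10 in both, all with fewer than 10 reads. In the control 13 of 29 calls were methylated, 44.8%, and in the ATO library 29 of 85, or 34.1%. On sums divided by 6 and 9, for shared fragments, the exact 95% intervals were 5.27 to 85.3 and 7.49 to 70.1. A level near 50%, or any difference, was therefore not detectable. The start of the Rasgrf1 gene was placed in the same way as that of Meg3, by 26 of 26 CpGs of its RefSeq promoter. It lay at 89804613, 27613 bp above the window. Within 1000 bp of it 81 analysed cytosines averaged 2.99% in the control library and 2.68% in the ATO library. In the RefSeq promoter sequence itself 0 cytosines were analysed, so these levels were read around it.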

How the data were processed

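Captured DNA (SureSelect Methyl-Seq) was bisulfite converted and sequenced, per the labels' protocols. Bowtie2, Bismark 0.19.0, bcl2fastq and build mm9 are named in the submitters' processing notes. How reads were trimmed, deduplicated and filtered is not given in the sources used here. Coverage was deposited as a read count per cytosine and strand, and C and T as a percent of it, per the file headers. Methylated counts were coverage times percent C, and 100% of products were whole within the rounding to 2 decimals. The libraries held 135987272 and 147924810 calls. Calculations used Python 3.11.15, scipy 1.17.1 and numba 0.67.0, and the tests were tested on simulated data. Fisher's exact test (two-sided) compared counts at cytosines and in bins, adjusted over all of them. Duplicates and overlapping mates would make reads dependent, so intervals cover counting error only. Named cytosines were the edges, extremes, largest differences and calls of each stretch; others were chosen after their values were seen. The windows, stretches and tests were chosen with earlier results of these data known.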

Additional observations from a re-analysis of the deposited data

How the results depend on the processing

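Widening the windows by 10000 bp and leaving out positions with a listed neighbour were alternatives chosen after seeing the data. Many of the 54 mean differences under alternatives used the same cytosines as the main result, weighted the same way, and could not move. Of the 54 differences, 42 kept their sign and moved by less than counting error. Those of the longer H19 stretch changed sign from -0.482 to 0.691 and 0.72 points at coverage minimums of 20 and 30, to 1.97 with calls weighted alike and to 0.71 with a range of 40 to 60%. The H19 window changed from 2.73 to -0.482 points on the reverse strand alone, which leaves out the 5 forward-strand cytosines. The Meg3 promoter stretch changed from 2.13 to -0.011 and -0.0236 points at minimums of 20 and 30, to 5.83 with a range of 40 to 60% and to -1.02 when widened. The intergenic stretch was -12.1 points at a minimum of 30, the Meg3 window -2.73 with calls weighted alike and the short H19 stretch 12 when widened. Called cytosines in the Meg3 window went from 1 to 2 at minimums of 5, 20 and 30. Of all cytosines tested at these minimums, 2.17%, 3.38% and 3.95% were called. At 20 and 30 the called ones were 110779467 and 110779510, and 110770814 was no longer tested. Called bins in the H19 window went from 0 to 1 with all calls counted, where 4.94% of all bins were called. The edges depended on the settings. At a minimum of 5 both H19 stretches joined to 51 cytosines over 2992 bp, and widening took the short one to 20 cytosines and 414 bp. With up to 4 cytosines outside, the lowest Meg3 stretch grew to 13 cytosines and 490 bp. The intergenic stretch measured 880 bp with a range of 25 to 75% and 127 bp with 40 to 60%. The promoter stretch held 13 cytosines over 395 bp with 40 to 60%, 27 over 707 bp with 0 outside and 81 over 4088 bp when widened. The causes were not tested where the construction does not show them. The short H19 stretch was not found at a minimum of 20, where its 2 remaining cytosines differed by 25.5 points, and gave no value at 30 or on the reverse strand, and the lowest Meg3 stretch none with 40 to 60% or 0 outside. No paired analysis was possible because each group has 1 library.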

Other observations

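Methylation around the windows was read as well. Below the H19 window, 47 cytosines from 149762403 to 149763971 averaged 76.3% in both libraries, and the last of them, 37 bp below the first cytosine of the window, read 18.8% of 32 reads and 35.4% of 48 reads. Above the Meg3 window, 29 cytosines from 110780078 to 110781987 averaged 49.4% in the control library and 42.7% in the ATO library. They were followed from 110784120 by 31 cytosines at 24.1% and 26.7%. Of these 31 cytosines 1 was called, against 2.65% of all analysed cytosines. It was 110784229, at 28.6% of 84 reads and 60.2% of 83 reads, with adjusted p = 0.00314 by Fisher's exact test. The nearest analysed cytosines to the Rasgrf1 window were 12 at 3606 bp below it, at 56.2% and 49.9%, and 11 at 18055 bp above it, at 52.4% and 36.0%. All 11 were lower in the ATO library and 0 were called (Fisher's exact test), but neighbouring cytosines share fragments.

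Some listed positions sat next to each other on the same strand. Neighbouring bases of 1 strand cannot both be the cytosine of a CpG, yet 1.44% of the control's listed cytosines and 1.40% of the ATO library's had such a neighbour. The Meg3 window listed 8 of them, of which 2 were analysed, and the H19 window 2, of which 0 were analysed.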
